A study of Homo sapiens with 30 samples.

Results

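Class 3 semaphorins, neuropilins and plexins form a ligand and receptor system, described here from 9 genes: the ligands SEMA3A, SEMA3B, SEMA3C and SEMA3F, the co-receptors NRP1 and NRP2, and the receptors PLXNA1, PLXNA2 and PLXND1. They are 9 of the 38122 genes in the table, found by matching Ensembl identifiers to symbols, and all 9 were present and passed the filter on low values in every comparison. The set was chosen because SEMA3A was higher at pH 6.5 in HCT116 cells and lower at pH 6.5 in SiHa cells. For that reason the pH values of the members in HCT116 and SiHa are given as a description, with no p-value, and the counts of members past the threshold there describe the choice. FaDu and, for the members other than SEMA3A, the comparisons between lines are tested.

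Class 3 semaphorins are secreted proteins, first known for repelling growing axons and later described in blood vessel growth and in tumours. Most of them bind a neuropilin on the receiving cell, and the neuropilin joins a plexin, whose inner part passes the signal to small GTPases and the cytoskeleton. NRP1 is the main neuropilin for SEMA3A and NRP2 the main one for SEMA3F, while SEMA3C can bind both, and both neuropilins are also co-receptors for vascular endothelial growth factors.

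RNA sequencing was done on 30 libraries of 3 established human cancer lines, with 5 libraries in each of 6 groups. HCT116 comes from a colon carcinoma, SiHa from a squamous carcinoma of the cervix and FaDu from a squamous carcinoma of the hypopharynx. Each line was grown at pH 6.5, where it had been held for 1 month or longer, or at pH 7.4, in otherwise the same buffered medium. Whether libraries of 1 group came from separate cultures, or from 1 adapted population or several, is not stated in the labels, so every p-value here measures only the spread between these libraries. No allele was introduced and no drug was added in any group.

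Values are normalised counts per library, and libraries held 21018967 to 55680250 reads assigned to genes. For a gene with no read, counting error alone allows a level of 3 reads, which is 1.9 to 5.01 normalised counts. In the text below, a gene was called when its adjusted p from limma was under 0.05, and log2 changes refer to the normalised count plus 1.

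In 9 libraries the reads went against the label or the library stood apart from its group, and these were kept apart. The first check used genes detected in 1 line and nearly absent from the other lines, 33 of them for HCT116, 28 for SiHa and 24 for FaDu. They were picked on FaDu and SiHa libraries at pH 6.5 and HCT116 libraries at pH 7.4. Low carry-over in those libraries was therefore set by the picking. In the 21 kept libraries, restricted genes of another line reached at most 0.0708% of their own line's level. In the kept libraries not used for picking, the highest was 0.0465%, for SiHa genes in HCT116 pH 6.5 replicate 1. HCT116 pH 6.5 replicates 5, 6 and 7 carried HCT116 genes at 58.8%, 1.94% and 0.581% of the kept level and SiHa genes at 37.5%, 101% and 104%. FaDu pH 7.4 replicates 2, 3, 4 and 5 carried HCT116 genes at 80.4%, 30.6%, 42.7% and 61.9%, and FaDu genes at 10.9%, 66.6%, 50.2% and 27.7%. SiHa pH 7.4 replicates 6 and 7 carried SiHa genes but had 2817 and 2863 normalised counts of VIM, a mesenchymal intermediate filament gene, against 2.04 to 165 in the other 3. This left 2 libraries at pH 6.5 and 5 at pH 7.4 for HCT116, 5 and 3 for SiHa, and 5 and 1 for FaDu. Kept libraries of FaDu had all 7 squamous markers above the floor, and kept HCT116 libraries had 5 of 8 colon markers above it in every library. Of the defining colon markers, CDX2 was at 1030.05 and 821 in kept HCT116 libraries at pH 6.5 and at 700.2 to 918 at pH 7.4. CDX1 was at 0 in every kept HCT116 library. HNF4A was at 14.9 and 7.98 in the pH 6.5 libraries of HCT116, against 566 to 713 at pH 7.4, and the part of this difference in the results below was not tested. The summed level of 7 squamous markers in SiHa was 23753 to 31867 at pH 6.5, against 41585 to 53176 at pH 7.4, and its part was not tested either. In bulk RNA, fewer cells of a type and less RNA per cell cannot be told apart.

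The stretch upstream of the start is shown for 2 receptor genes that had their largest pH difference downwards in SiHa, NRP2 and PLXNA2, because each has a single start in RefSeq (assembly GRCh38.p14). Of the 9 members, 7 matched an entry, and SEMA3A and NRP1 are named only. The windows are the 250 bases before the start, read 5′ to 3′ on the gene's own strand, at chr2:205682251-205682500 (plus strand) and chr1:208244385-208244634 (minus strand). Bases downstream of the start were found in a GENCODE 29 transcript of the gene for NRP2 but not for PLXNA2. The PLXNA2 start is therefore less sure. Capitals mark GC boxes, the letters GGGCGG on either strand.
NRP2: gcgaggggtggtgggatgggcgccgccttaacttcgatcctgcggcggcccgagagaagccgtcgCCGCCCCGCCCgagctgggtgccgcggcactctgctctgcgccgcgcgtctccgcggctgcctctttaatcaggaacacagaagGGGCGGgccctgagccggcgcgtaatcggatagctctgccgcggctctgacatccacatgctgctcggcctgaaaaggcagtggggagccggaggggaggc
PLXNA2: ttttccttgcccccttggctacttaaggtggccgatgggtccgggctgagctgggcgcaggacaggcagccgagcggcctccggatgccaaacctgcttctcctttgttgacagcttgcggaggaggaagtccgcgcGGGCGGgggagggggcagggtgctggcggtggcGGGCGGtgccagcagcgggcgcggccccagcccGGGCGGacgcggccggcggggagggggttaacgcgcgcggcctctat
Both windows hold 3 GC boxes, of which 2 overlap in NRP2, and 42.6% of all 35116 windows of this length hold at least 1. The NRP2 window has 29 CpG dinucleotides and a GC content of 70.0%, and the PLXNA2 window 27 and 72.4%, against medians of 11 and 58.0% over all windows. The letters of a hypoxia-response core (ACGTG, in 18.5% of windows), of an E-box (CACGTG, which contains that core, in 6.3%), of an AP-1 site (TGANTCA, in 6.6%) and of a TATA box (TATAAA, in 10.7%) are not in either window, on either strand. These matches describe letters only, and no binding was measured.

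Among the ligands, SEMA3A spanned the widest range of the 9 genes. It had 4888 and 11169 normalised counts in the 2 kept HCT116 libraries at pH 6.5, against 114, 127, 157, 147 and 187 in the 5 libraries at pH 7.4. Both pH 6.5 libraries lay far above all 5 at pH 7.4, with a log2 change of 5.67 ± 0.28 (SE), or 50.8-fold. Of the HCT116 libraries kept apart, replicate 5 had 5514, and replicates 6 and 7 had 249 and 76.0. With all libraries as labelled the groups overlapped, and the log2 change was 3.29 ± 1.25.

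In SiHa cells SEMA3A was low at pH 7.4 and at the floor at pH 6.5. A single read was found in the 5 libraries at pH 6.5, giving 1.4 normalised counts in replicate 4 and 0 in the other 4 libraries, against 15.3, 19.9 and 25.9 in the 3 kept libraries at pH 7.4. The groups did not overlap, and the totals were 1 read against 59 reads. The ratio of pH 6.5 to pH 7.4 was 0.0101, a description whose size is uncertain because it rests on 1 read at pH 6.5. SiHa pH 7.4 replicates 6 and 7, kept apart, had 86.6 and 169, so the difference was larger with them than without. Over the 5 SiHa libraries at pH 7.4, SEMA3A and VIM took the same order, with VIM at 2.04, 28.4, 165, 2817 and 2863. The summed level of 7 mesenchymal markers was 1132 to 3412 in SiHa libraries at pH 6.5, against 2937 to 4230.1 in kept libraries at pH 7.4, and the part of these markers in the SEMA3A difference was not tested.

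FaDu cells had 756, 1473, 1236, 1089 and 1455 normalised counts of SEMA3A at pH 6.5, against 369 in the 1 kept library at pH 7.4. All 5 libraries at pH 6.5 were above it. SEMA3A rose by 1.66 ± 0.34 (SE) on the log2 scale, or 3.16-fold (limma adjusted p = 0.0354). In this and every other FaDu pH test the spread comes from the 5 libraries at pH 6.5 alone, and the 1 library at pH 7.4 is assumed to vary like them. The call was lost when pH 6.5 replicate 2, 3, 4 or 5 was left out (limma adjusted p = 0.0682, 0.0995, 0.0932 and 0.0698), with log2 changes of 1.58, 1.64, 1.69 and 1.58. The 4 FaDu libraries at pH 7.4 kept apart had 168, 288, 244 and 193, all below the 5 at pH 6.5. They also carried HCT116 genes, and kept HCT116 libraries at pH 7.4 had 114 to 187. All 4 lay within the range of the kept pH 7.4 libraries of both lines, so they are no separate measurement of FaDu.

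SEMA3C, which signals through neuropilins with plexin D1 in heart and vessel development, had the highest mean level per kilobase of exon among the 4 ligands in 5 of the 6 groups, all but HCT116 at pH 6.5. SiHa libraries at pH 6.5 had 4694, 4889, 4440, 3328 and 2895 normalised counts, against 7238, 7546 and 6743 at pH 7.4. Every pH 6.5 library was lower, with a log2 change of -0.85 ± 0.16 (SE). HCT116 libraries had 1291 and 4852 at pH 6.5, against 3369, 1614, 2009, 2033 and 2681 at pH 7.4. There the 2 libraries at pH 6.5 lay below and above the whole pH 7.4 group, and the log2 change of 0.14 ± 0.40 became -0.81 without pH 6.5 replicate 3 and 1.10 without replicate 1. FaDu libraries had 4195 to 6544 at pH 6.5, against 6632 at pH 7.4 (log2 change -0.29 ± 0.21, limma adjusted p = 0.416).

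SEMA3B and SEMA3F are neighbouring genes of chromosome 3 studied as growth-restraining ligands in lung tumours. SEMA3B had 396, 284, 212, 280.0 and 592 normalised counts in SiHa at pH 6.5, against 276, 162 and 152 at pH 7.4. These groups overlapped, and the log2 change of 0.80 ± 0.31 (SE) was 0.96 without pH 6.5 replicate 5 and 1.07 without pH 7.4 replicate 1. In FaDu, SEMA3B had 591, 1403, 1415, 1213 and 1416 at pH 6.5, against 364 at pH 7.4 (log2 change 1.66 ± 0.45, limma adjusted p = 0.0681). Replicate 1 lay far below the other 4, and without it the log2 change was 1.90 ± 0.12 (limma adjusted p = 0.000137). HCT116 libraries had 727 and 959 at pH 6.5, against 896 to 1259 at pH 7.4, and these overlapped. The gene overlaps MIR6872 on the same strand, whose own reads cannot be told apart in these counts.

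SEMA3F had 1158, 904, 982, 1463 and 1348 normalised counts in SiHa at pH 6.5, against 833, 818 and 892 at pH 7.4. All 5 pH 6.5 libraries were higher, by 0.44 ± 0.15 (SE) on the log2 scale. SEMA3F had 1206 and 821 in HCT116 at pH 6.5, against 776 to 1024 at pH 7.4, and 1512 to 2063 in FaDu at pH 6.5, against 1505 at pH 7.4 (limma adjusted p = 0.473).

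**Figure D1:**
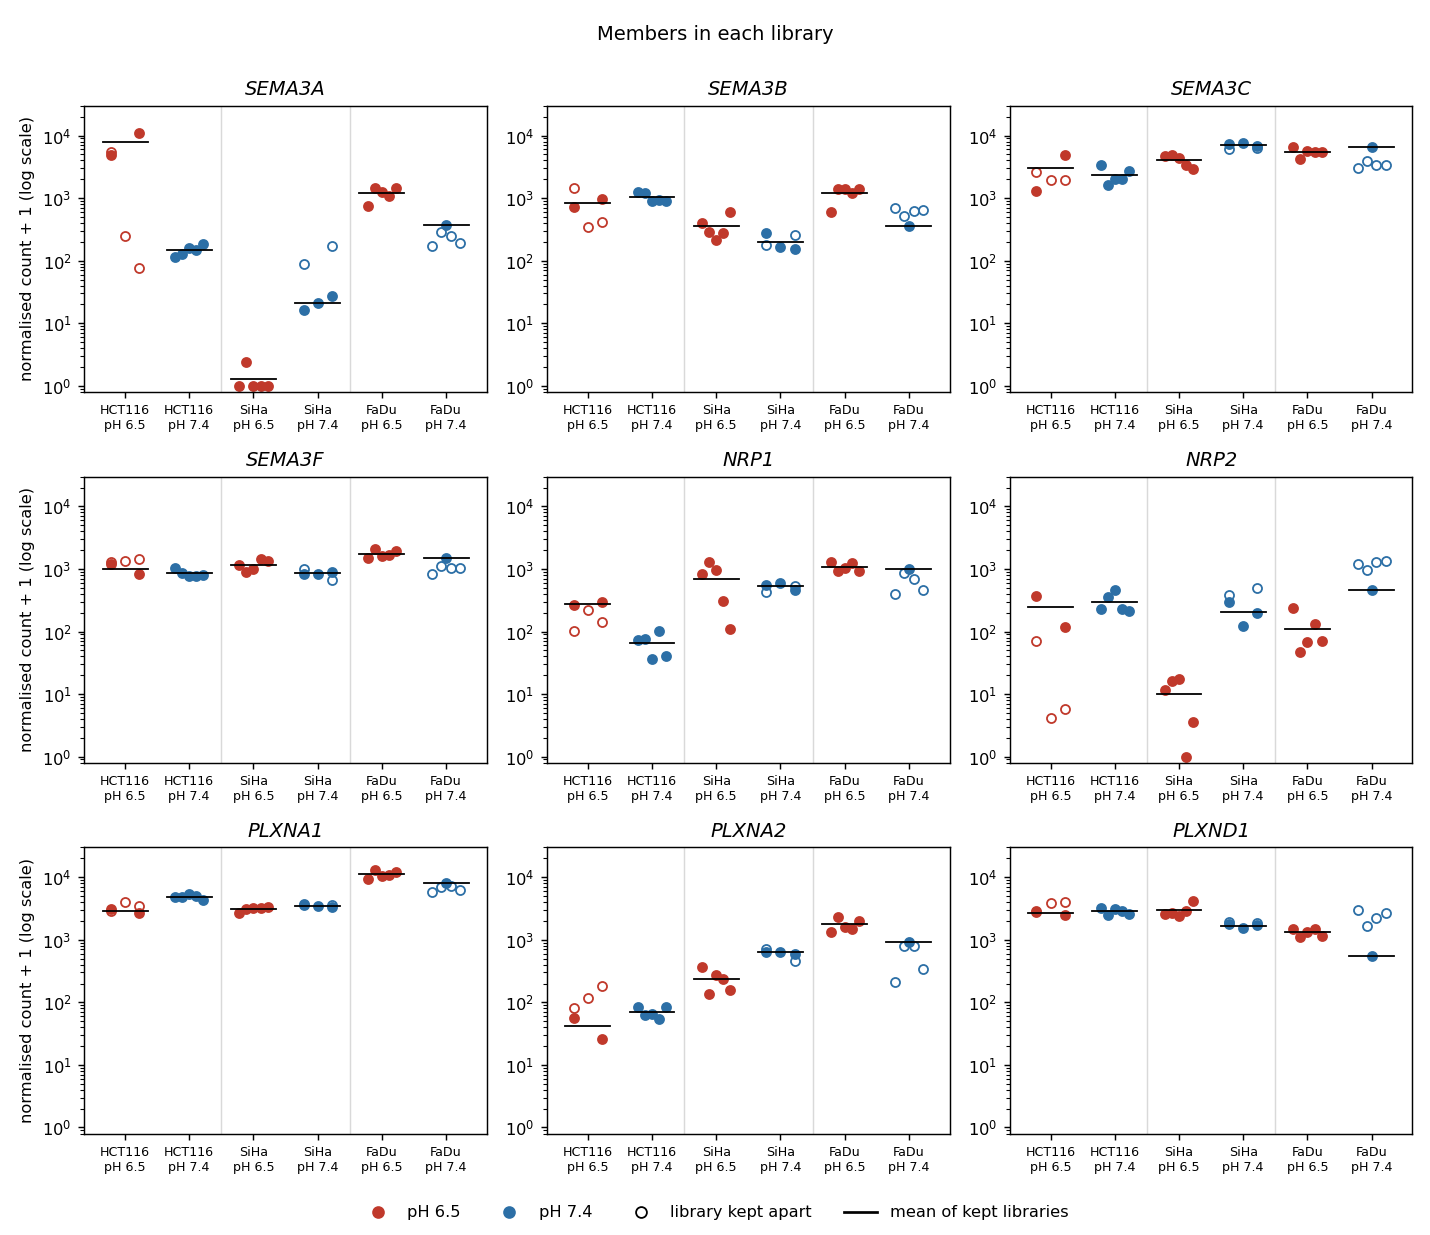
Normalised count plus 1 (log axis) of each member in each of the 30 libraries, by line and pH, pH 6.5 left of pH 7.4. Filled points are kept libraries, open points libraries kept apart and lines the mean of kept libraries; SEMA3A at pH 6.5 sits at 4888 and 11169 in HCT116 and at 0 to 1.4 in SiHa.

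The neuropilins differed with pH in different lines. NRP1 had 262 and 293 normalised counts in HCT116 at pH 6.5, against 72.0, 75.8, 35.2, 99.5 and 40.1 at pH 7.4. Both pH 6.5 libraries lay above all 5 at pH 7.4, with a log2 change of 2.19 ± 0.37 (SE), or 4.57-fold. The HCT116 libraries kept apart had 101, 219 and 140.2, and with them the log2 change was 1.64 ± 0.38. Replicates 6 and 7, which carried SiHa genes at full level, lay within the SiHa values at pH 6.5 (107 to 1276), and replicate 5 lay below the kept pH 6.5 libraries of both lines.

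In SiHa, NRP1 had 834, 1276, 963, 311 and 107 normalised counts at pH 6.5, against 562, 599 and 462 at pH 7.4. The pH 6.5 libraries lay on both sides of the pH 7.4 group, and the log2 change of -0.08 ± 0.65 (SE) took the other sign without pH 6.5 replicate 6 (0.10) or replicate 7 (0.48). In FaDu, NRP1 had 1309, 922, 1024, 1259 and 928 at pH 6.5, against 986 at pH 7.4, and the groups overlapped (log2 change 0.125 ± 0.22, limma adjusted p = 0.752).

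NRP2 had 10.8, 15.4, 16.1, 0 and 2.56 normalised counts in SiHa at pH 6.5, against 291, 119 and 199.7 in the kept libraries at pH 7.4. The highest pH 6.5 library was far below the lowest pH 7.4 library, with a log2 change of -4.88 ± 0.83 (SE), or 0.034-fold. The libraries kept apart had 378 and 492, and with them the log2 change was -5.35 ± 0.71. In these groups NRP2 was thus lower at pH 6.5 while NRP1 overlapped between the pH values.

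In FaDu, NRP2 had 236, 45.8, 66.5, 128 and 70.7 normalised counts at pH 6.5, against 453 at pH 7.4. All 5 pH 6.5 libraries were lower, and the log2 change of -2.29 ± 0.77 (SE) was not called (limma adjusted p = 0.108). Without pH 6.5 replicate 1, which was the highest of the 5, it was -2.62 ± 0.47 (limma adjusted p = 0.00524). The FaDu pH 7.4 libraries kept apart had 1203, 959.99, 1283 and 1350.1. These 4 values exceeded both the kept FaDu library and every HCT116 library at pH 7.4 (212 to 463), the line whose reads those libraries also carried. In HCT116 the 2 pH 6.5 libraries had 369 and 116, on both sides of the lowest pH 7.4 values of 228, 358, 463, 227 and 212, and the log2 change was -0.45 ± 0.40, or 0.38 without pH 6.5 replicate 3. An antisense gene, AC007362.1, overlaps NRP2 and had 0 to 2.97 normalised counts; the strand setting of the counting is not given in the sources used here.

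Among the plexins, PLXNA1, a partner of neuropilins in SEMA3A signalling, had 3059 and 2685 normalised counts in HCT116 at pH 6.5, against 4806, 4791, 5407, 4919 and 4349 at pH 7.4. Both pH 6.5 libraries were lower, with a log2 change of -0.76 ± 0.12 (SE), or 0.592-fold. In SiHa, PLXNA1 had 2674 to 3317 at pH 6.5, against 3356 to 3604 at pH 7.4, which did not overlap, with a log2 change of -0.17 ± 0.09. FaDu had 9330.0, 13250, 10383, 10771 and 12147 at pH 6.5, against 8104 at pH 7.4 (log2 change 0.45 ± 0.19, limma adjusted p = 0.171).

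PLXNA2, a related A-type receptor, had 369, 133, 268, 236 and 158 normalised counts in SiHa at pH 6.5, against 648, 641 and 593 at pH 7.4. The groups were well separated, with a log2 change of -1.52 ± 0.28 (SE). In FaDu the values were 1336, 2345, 1625, 1502 and 1972 at pH 6.5, against 912 at pH 7.4 (log2 change 0.92 ± 0.28, limma adjusted p = 0.0891). Every FaDu library at pH 6.5 was higher than the pH 7.4 library, the opposite order to SiHa. In HCT116, PLXNA2 was low, with 56.1 and 25.1 at pH 6.5, against 84.7, 61.9, 64.4, 54.1 and 83.6 at pH 7.4. The groups overlapped, and the log2 change of -0.85 ± 0.33 was -0.29 without pH 6.5 replicate 3 and -1.42 without replicate 1.

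PLXND1, the receptor of endothelial cells for SEMA3E and, with neuropilins, for SEMA3C, had 2589, 2727, 2361, 2893 and 4233 normalised counts in SiHa at pH 6.5, against 1802, 1538 and 1718 at pH 7.4. All pH 6.5 libraries were higher, with a log2 change of 0.78 ± 0.16 (SE). FaDu had 1472, 1095, 1318, 1483 and 1165 at pH 6.5, against 558 at pH 7.4. PLXND1 rose by 1.22 ± 0.19 on the log2 scale in FaDu, or 2.32-fold, against its 1 library at pH 7.4 (limma adjusted p = 0.0198), and the call was lost without pH 6.5 replicate 3 or 4 (limma adjusted p = 0.0705 and 0.0656, log2 change 1.21 and 1.17). The FaDu pH 7.4 libraries kept apart had 2991, 1643, 2220.4 and 2671, above all 5 libraries at pH 6.5, so that with all libraries as labelled the log2 change was -0.43 ± 0.39 (limma adjusted p = 0.377). HCT116 libraries at pH 7.4, whose line's reads those libraries carried, had 2510.3 to 3206. In HCT116 itself PLXND1 had 2844 and 2464 at pH 6.5, against 2510.3 to 3206 at pH 7.4. These groups overlapped, and the log2 change was -0.10 ± 0.14.

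**Figure D2:**
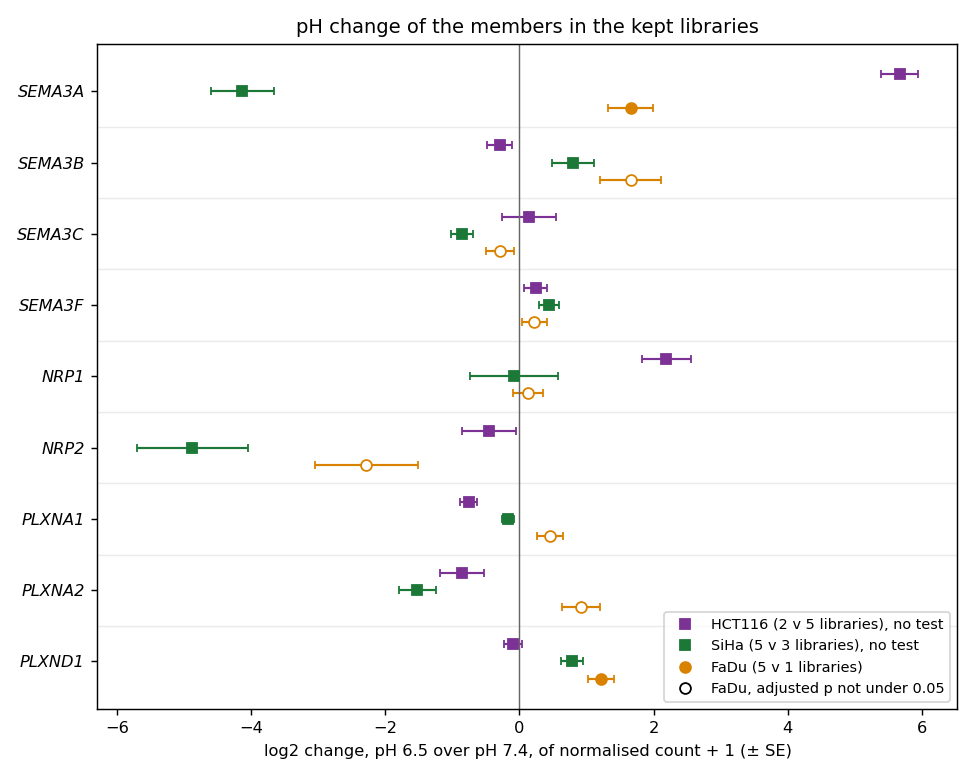
Log2 change of each member, pH 6.5 over pH 7.4, with its SE, in the kept libraries of the 3 lines; open points, shown for FaDu only, have an adjusted p of 0.05 or more, and squares (HCT116 and SiHa) carry no test. SEMA3A lies at 5.67 in HCT116, 1.66 in FaDu and -4.13 in SiHa, and NRP2 lies below 0 in all 3 lines, though at 0.38 in HCT116 without pH 6.5 replicate 3.

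Counted over the 9 members, 2 were past the threshold and higher (SEMA3A and NRP1) and 1 lower (PLXNA1) at pH 6.5 in HCT116, where 20.2% of all 18885 genes tested were called, 9.11% higher and 11.1% lower. The same 3 members were the ones whose groups did not overlap, against 36.2% of all genes tested. In SiHa, 2 were past it and higher (SEMA3F and PLXND1) and 4 lower (SEMA3A, SEMA3C, NRP2 and PLXNA2), where 31.2% of 18555 genes were called, 15.0% higher and 16.2% lower. Groups did not overlap for 7 members in SiHa, against 35.5% of genes tested. The median log2 change of the members was -0.10 in HCT116 and -0.17 in SiHa, against -0.01 over all genes tested in each line. Since the members were chosen from these contrasts, the counts describe the choice. Leaving out 1 library moved them: SEMA3F in SiHa was no longer past the threshold without pH 6.5 replicate 1 (0.44), 6 (0.36) or 7 (0.39) or pH 7.4 replicate 1 (0.43), 4 (0.42) or 5 (0.48), SEMA3B in SiHa was past it without pH 6.5 replicate 5 (0.96) or pH 7.4 replicate 1 (1.07), and PLXNA2 in HCT116 without pH 6.5 replicate 1 (-1.42).

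In FaDu, 2 members were called, both higher at pH 6.5 (SEMA3A and PLXND1), where 7.36% of 19170 genes were called, 4.24% higher and 3.12% lower. Groups did not overlap for 8 members, but with 1 library at pH 7.4 this also held for 57.1% of all genes. The median log2 change was 0.45, against -0.01 over all genes tested. Replicate 1 at pH 6.5 stood apart from the other 4, and without it 6 members were called (SEMA3A, SEMA3B, PLXNA1, PLXNA2 and PLXND1 higher, NRP2 lower), where 36.5% of all genes were called. Without replicate 3 or replicate 4 no member was called, and 74 and 66 genes were called in all. The FaDu pH result therefore rests on 1 library at pH 7.4, and its calls moved with single libraries at pH 6.5.

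The share of each member within its family was computed per kilobase of exon, which makes genes of different length comparable within a library. SEMA3A made up 46.3% of the summed level of the 4 ligands in HCT116 at pH 6.5 (43.7% and 48.8% in the 2 libraries), against 1.86% at pH 7.4 (1.07% to 2.26%). SEMA3C made up 65.7% in SiHa at pH 6.5, against 83.5% at pH 7.4, and 52.7% in FaDu at pH 6.5, against 70.8% at pH 7.4. Among the neuropilins, NRP2 made up 1.36% in SiHa at pH 6.5 (0 to 2.46%), against 28.0% at pH 7.4 (17.4% to 35.3%). NRP2 also made up a smaller share in FaDu, with 8.89% at pH 6.5 (4.97% to 16.0%), against 32.6% at pH 7.4, and in HCT116, with 44.6% at pH 6.5 (29.5% and 59.7%), against 81.8% at pH 7.4 (70.6% to 93.3%). In the kept libraries of each line the NRP1 share was thus higher at pH 6.5 than at pH 7.4. The ranges did not overlap in HCT116 and SiHa, while FaDu had 1 library at pH 7.4 and so no range there. NRP2 still held 59.7% in 1 of the 2 HCT116 libraries at pH 6.5. How often shares of other gene pairs stay apart in this way was not tested. These shares come from the same counts that chose the set and are given as a description. PLXNA1 led the plexins in FaDu, with 78.3% at pH 6.5 and 85.0% at pH 7.4, and also led at pH 7.4 in HCT116 (56.8%) and SiHa (56.8%). At pH 6.5 its share was 45.6% in HCT116 and 44.3% in SiHa (37.5% to 49.7%), against 53.9% and 53.0% (47.0% to 61.1%) for PLXND1, and in SiHa these ranges overlapped.

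**Figure D3:**
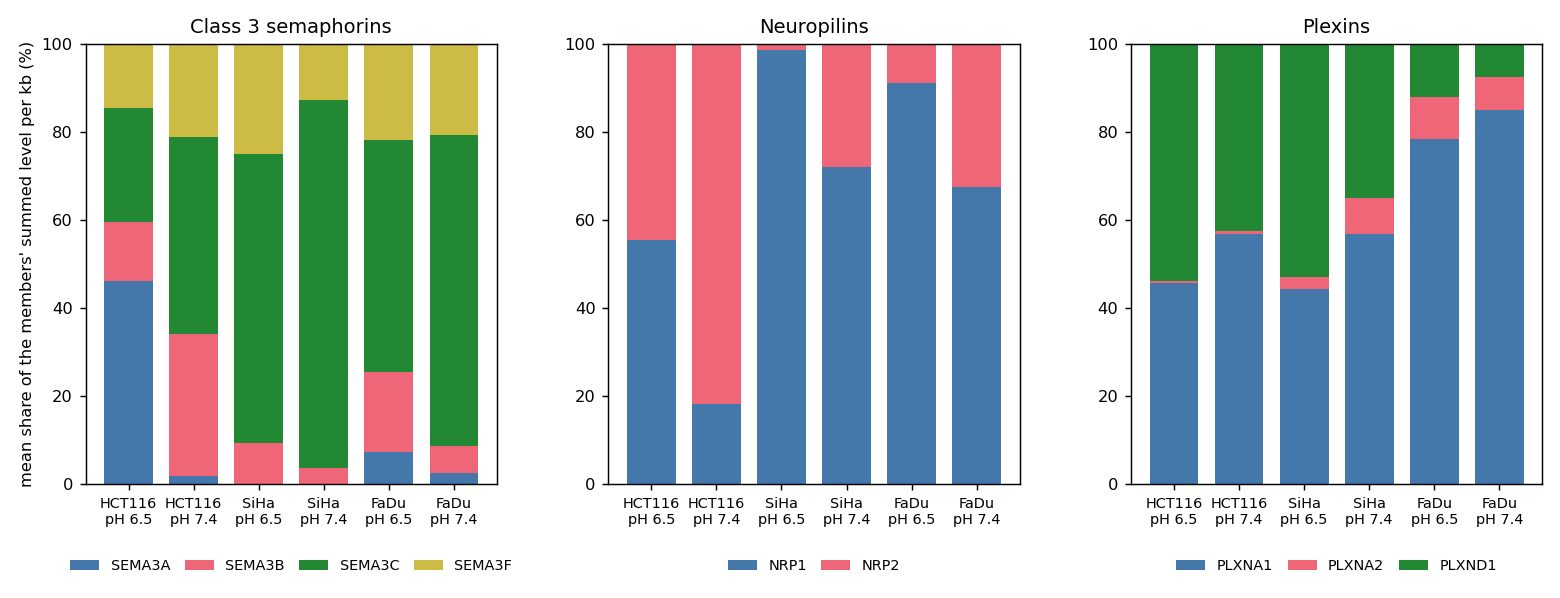
Mean share (%) of each member in the summed level per kilobase of the 4 ligands, the 2 neuropilins and the 3 plexins, by line and pH, pH 6.5 left of pH 7.4, in kept libraries. The SEMA3A share is 46.3% in HCT116 at pH 6.5 and 1.86% at pH 7.4, and the NRP2 share in SiHa is 1.36% and 28.0%.

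Between lines at 1 pH the members were compared in contrasts that the choice of the set did not use as such, although the SEMA3A values of HCT116 and SiHa entered it, so that SEMA3A is given here without a p-value. These comparisons share libraries with each other and with the pH comparisons. At pH 7.4, the members called in HCT116 against SiHa, SEMA3A left aside, were SEMA3B, PLXNA1 and PLXND1 (higher) and SEMA3C, NRP1 and PLXNA2 (lower). Of all genes tested, 73.4% were called, 37.3% higher and 36.1% lower, so a share of members near this background is no result about them. The largest differences were in the receptors. PLXNA2 averaged 69.7 ± 13.7 normalised counts in HCT116 (SD, n = 5) and 627 ± 29.7 in SiHa (SD, n = 3), a log2 difference of -3.17 ± 0.18 (SE, limma adjusted p = 3.36e-08). NRP1 averaged 64.5 ± 26.7 in HCT116 and 541 ± 70.5 in SiHa, a log2 difference of -3.14 ± 0.32 (limma adjusted p = 3.92e-06). SEMA3A averaged 147 ± 28.0 in HCT116 and 20.4 ± 5.35 in SiHa, a log2 difference of 2.80 ± 0.23. With SiHa replicates 6 and 7 as labelled the SEMA3A groups overlapped and the difference was 1.78 ± 0.55. SEMA3B was higher in HCT116 by 2.43 ± 0.20 and SEMA3C lower by a log2 difference of -1.66 ± 0.20 (limma adjusted p = 8.93e-07 and 1.56e-05), and the test did not separate SEMA3F (log2 difference -0.01 ± 0.11, limma adjusted p = 0.95). NRP2 (log2 difference 0.57 ± 0.32, limma adjusted p = 0.13) was called without SiHa replicate 1, at 0.87.

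At pH 6.5, the members called in FaDu against SiHa, SEMA3A left aside, were SEMA3B, SEMA3C, SEMA3F, NRP2, PLXNA1 and PLXNA2 (higher) and PLXND1 (lower). Of all genes tested, 74.1% were called, 39.4% higher and 34.7% lower. SEMA3A totalled 6622 reads in 5 FaDu libraries and 1 read in 5 SiHa libraries, a ratio of 6005 that rests on that 1 read. PLXNA2 averaged 1756 ± 404 normalised counts in FaDu and 233 ± 94.1 in SiHa (SD, n = 5 each), a log2 difference of 2.98 ± 0.25 (SE, limma adjusted p = 2.29e-07). NRP2 averaged 109.55 ± 77.2 in FaDu and 8.97 ± 7.37 in SiHa, a log2 difference of 3.83 ± 0.73 (limma adjusted p = 0.000399). PLXNA1 averaged 11176 ± 1536 in FaDu and 3105 ± 257 in SiHa, 3.58-fold higher in FaDu (limma adjusted p = 3.22e-09). PLXND1 was lower in FaDu, at 1307 ± 176 against 2960 ± 738 in SiHa (log2 difference -1.16 ± 0.15, limma adjusted p = 1.16e-05). SEMA3B and SEMA3C had groups that overlapped, with log2 differences of 1.80 ± 0.29 and 0.45 ± 0.16 (limma adjusted p = 9.85e-05 and 0.0183). For SEMA3C the limma adjusted p was 0.0497 without SiHa pH 6.5 replicate 6. NRP1 did not pass the test, at 1088 ± 184 in FaDu and 698 ± 480 in SiHa (limma adjusted p = 0.0865). It passed without SiHa pH 6.5 replicate 4 (limma adjusted p = 0.0289) and in 1 fit over all kept libraries (limma adjusted p = 0.041). In that fit the count of members called, with SEMA3A, stayed at 8, so another member lost its call there.

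HCT116 against FaDu at pH 6.5 rested on 2 HCT116 libraries. Members called there, SEMA3A left aside, were PLXND1 (higher) and SEMA3C, SEMA3F, NRP1, PLXNA1 and PLXNA2 (lower). Of all genes tested, 63.9% were called, 30.9% higher and 33.0% lower. The difference in PLXNA2 was the largest, at -5.48 ± 0.31 on the log2 scale (SE, limma adjusted p = 8.49e-07). SEMA3A was higher in HCT116 by 2.66 ± 0.34, and NRP1 was lower by a log2 difference of -1.95 ± 0.17 (limma adjusted p = 1.29e-05). The SEMA3C call (log2 difference -1.12 ± 0.41, limma adjusted p = 0.0383) was lost without HCT116 replicate 1, at -0.16, and without FaDu replicate 1, 3, 4 or 5, at -1.05, -1.10, -1.11 and -1.11. SEMA3B and NRP2 were called without FaDu replicate 1, at -0.70 and 1.50. With the 3 HCT116 libraries kept apart added back, the log2 difference in SEMA3A was 0.28 ± 1.26.

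**Figure D4:**
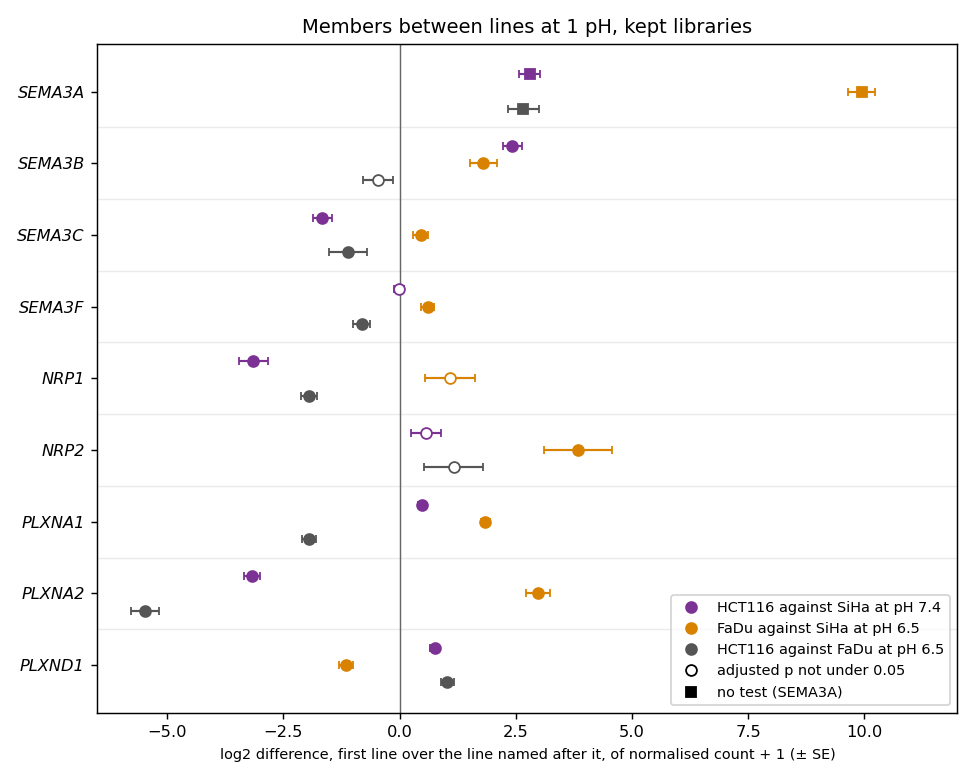
Log2 difference of each member, first line over the line named after it, with its SE, in kept libraries at 1 pH; open points have an adjusted p of 0.05 or more, and squares (SEMA3A) carry no test. PLXNA2 lies at -5.48 in HCT116 against FaDu and at 2.98 in FaDu against SiHa, and SEMA3A at 9.94 in FaDu against SiHa, a value that depends on the added 1 since SiHa had 1 read.

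Ordered by mean level, SEMA3A had 6 groups with no overlap between neighbours: HCT116 at pH 6.5, FaDu at pH 6.5, FaDu at pH 7.4, HCT116 at pH 7.4, SiHa at pH 7.4 and SiHa at pH 6.5. The mean levels per kilobase of exon in that order were 966, 145, 44.4, 17.6, 2.45 and 0.03 normalised counts. PLXNA2 ran from FaDu at pH 6.5, at 153 per kilobase, to HCT116 at pH 6.5, at 3.55, and only the 2 HCT116 groups overlapped. PLXNA1 was highest in FaDu at pH 6.5, at 1233 per kilobase, and there the SiHa and HCT116 groups at pH 6.5 overlapped, at 343 and 317. For NRP2, by contrast, the 5 highest groups overlapped from neighbour to neighbour, and SiHa at pH 6.5, at 0.87 per kilobase, lay apart below them. NRP1 overlapped among both FaDu and both SiHa groups and was lowest in HCT116 at pH 7.4, at 5.96 per kilobase.

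The profiles most like that of SEMA3A over the 6 group means were those of ETV1, CPT1C, ITGB4, HSH2D and OPLAH, at distances of 1.42, 1.61, 1.68, 1.70 and 1.71 on the log2 scale among 14311 genes. ETV1, an ETS transcription factor gene, averaged 2163 normalised counts in HCT116 at pH 6.5 and 385 at pH 7.4, and 3.7 in SiHa at pH 6.5 and 14.3 at pH 7.4. ITGB4, the beta subunit of the laminin receptor of hemidesmosomes, averaged 129 in SiHa at pH 6.5 and 519.7 at pH 7.4. In FaDu, unlike SEMA3A, both were lower at pH 6.5: ETV1 at 288.5 against 312 and ITGB4 at 14981 against 18257. CPT1C, HSH2D and OPLAH were higher at pH 6.5 in FaDu. OPLAH, unlike SEMA3A, was not lower at pH 6.5 in SiHa, at 9.4 against 8.9 at pH 7.4. For NRP2 the nearest were GOLGA7B, ZNF467, UNC5B, UNC5B-AS1 and PELI2, at distances of 0.756, 0.759, 0.77, 0.777 and 0.786. UNC5B, a netrin receptor, averaged 147 in SiHa at pH 6.5 and 659 at pH 7.4. UNC5B-AS1 is named as its antisense partner, and without a stated strand setting their reads cannot be told apart. In HCT116, ZNF467 (286 against 105), UNC5B-AS1 (174 against 62.8) and PELI2 (296 against 242) were higher at pH 6.5, unlike the mean of NRP2. GOLGA7B and UNC5B were lower there.

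The other class 3 semaphorins were next to absent in SiHa. SEMA3D, SEMA3E and SEMA3G averaged 0.18, 0.72 and 1.37 normalised counts at pH 6.5 and 0, 2.33 and 0 at pH 7.4, so none of the 3 could be tested there. In HCT116, SEMA3D fell at pH 6.5, to 51.5 and 84.4, against 90.6 to 161 at pH 7.4 (log2 change -0.86 ± 0.27, limma adjusted p = 0.0445). That call was lost with edgeR (-0.83, adjusted p = 0.0668), with all libraries as labelled (-2.51), without pH 6.5 replicate 1 (-0.51) and without pH 7.4 replicate 3 (-0.76), 6 (-0.90) or 7 (-0.85). SEMA3E, the ligand of plexin D1, had 189 to 1197 in FaDu at pH 6.5, against 83.5 at pH 7.4, and did not pass the test (log2 change 2.89 ± 0.84, limma adjusted p = 0.0792). It passed with DESeq2 (3.14, adjusted p = 0.0151) and without pH 6.5 replicate 1 (3.31, limma adjusted p = 0.000576). SEMA3G totalled 1559 reads in the 5 HCT116 libraries at pH 7.4 and 0 in the 3 kept SiHa libraries, at least 318-fold higher in HCT116 against a floor of 3 reads over the group. SEMA3D totalled 595 reads in HCT116 at pH 7.4 and 0 in SiHa, at least 122-fold higher in HCT116.

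Beyond the 9 members, 22 other semaphorins and plexins were in the table. In HCT116, 18 could be tested, and 2 rose and 2 fell at pH 6.5, where 20.2% of all genes were called. PLXNA4, a plexin that joins neuropilins in SEMA3A signalling, rose to 48.1 and 36.5 normalised counts at pH 6.5, against 3.44 to 7.84 at pH 7.4 (log2 change 2.82 ± 0.44, limma adjusted p = 0.000892). The call was lost with all libraries as labelled (log2 change 1.51, limma adjusted p = 0.131). SEMA6A, a membrane-bound semaphorin, fell to 152 and 192 at pH 6.5, against 335 to 609 at pH 7.4 (log2 change -1.43 ± 0.24, limma adjusted p = 0.00166). SEMA4G was the second that rose and SEMA3D the second that fell, with log2 changes of 0.65 and -0.86; the SEMA4G call was lost without pH 6.5 replicate 1 (0.64) or 3 (0.66).

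In SiHa, 17 of the 22 could be tested, and 1 rose and 4 fell, where 31.2% of all genes were called. PLXNB3, a B-type plexin and receptor of SEMA5A, fell to 5.12 to 16.2 normalised counts at pH 6.5, against 129 to 214 at pH 7.4 (log2 change -3.79 ± 0.34, limma adjusted p = 5.54e-05). The SiHa libraries kept apart had 135 and 71.8 of it. SEMA6D rose to 62.3 to 71.4 at pH 6.5, against 13.5 to 18.0 at pH 7.4 (log2 change 2.04 ± 0.21, limma adjusted p = 0.00011). SEMA4D, SEMA4F and SEMA7A fell by 0.60, 0.39 and 0.85 on the log2 scale, and the calls were lost for SEMA4F without pH 7.4 replicate 1 (-0.35) and for SEMA7A without pH 7.4 replicate 4 (-0.67).

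In FaDu, 18 could be tested and 3 passed the test, where 7.36% of all genes were called, all 3 higher at pH 6.5: SEMA4B, SEMA4D and SEMA6B, with log2 changes of 1.25, 0.76 and 0.88. SEMA4B had 19959 to 27167 normalised counts at pH 6.5, against 9350 at pH 7.4 (log2 change 1.25 ± 0.18, limma adjusted p = 0.017), and lost the call without pH 6.5 replicate 3 or 4 (log2 change 1.23 and 1.17, limma adjusted p = 0.0643 and 0.0531). The call was also lost for SEMA4D without replicate 2, 3, 4 or 5 (0.72 to 0.75) and for SEMA6B without replicate 3, 4 or 5 (0.83 to 0.87). SEMA6B had 1693 to 2683 normalised counts in the FaDu pH 7.4 libraries kept apart, above all 5 at pH 6.5 (866 to 1147). Median log2 changes of the tested genes were -0.04 in HCT116, -0.09 in SiHa and 0.27 in FaDu, against -0.01 over all genes in each line.

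**Figure D5:**
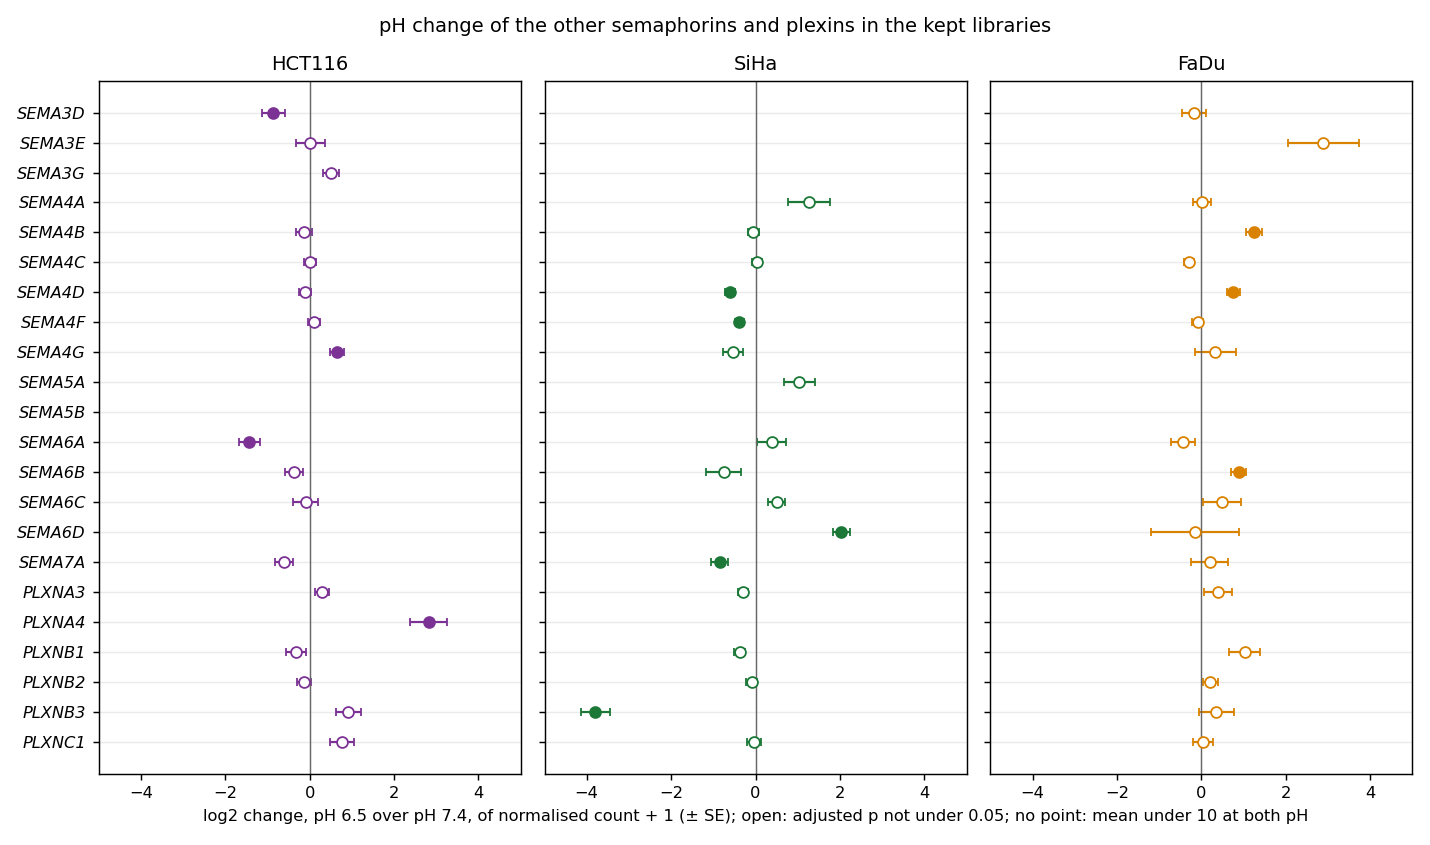
Log2 change, pH 6.5 over pH 7.4, with its SE, of the 22 semaphorins and plexins that are not members, in the kept libraries of each line; open points have an adjusted p of 0.05 or more. PLXNA4 lies at 2.82 in HCT116 and PLXNB3 at -3.79 in SiHa, and no point is drawn where the mean is under 10 at both pH values.

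Of 13 co-ligands and co-receptors of neuropilins, 9 could be tested in SiHa, and 1 rose and 5 fell, where 31.2% of all genes were called. The median log2 change was -0.34 in SiHa, -0.30 in FaDu and -0.21 in HCT116. HGF, a growth factor that also binds neuropilins, fell to 13.7 to 98.4 normalised counts at pH 6.5, against 204 to 320.4 at pH 7.4 (log2 change -3.12 ± 0.52, limma adjusted p = 0.00154). The SiHa libraries kept apart had 119 and 30.0 of HGF. L1CAM, an adhesion molecule that binds NRP1, fell to 963 to 3047 at pH 6.5, against 5092 to 7485 at pH 7.4 (log2 change -1.62 ± 0.33, limma adjusted p = 0.00446). FLT4, the receptor of VEGF-C, rose by 1.48 ± 0.42 (limma adjusted p = 0.0223), a call lost without SiHa pH 6.5 replicate 6 (1.40) or pH 7.4 replicate 1 (0.99). VEGFA, the main ligand that neuropilins share with VEGF receptors, fell in FaDu to 3407 to 6084 at pH 6.5, against 20083 at pH 7.4 (log2 change -2.16 ± 0.28, limma adjusted p = 0.0148), a call lost without pH 6.5 replicate 3 (-2.12) or 4 (-2.15). The FaDu pH 7.4 libraries kept apart had 4298 to 12428 of VEGFA. It was the only gene called of the 10 tested in FaDu, and 0 of 7 were called in HCT116. Over all genes tested, 7.36% were called in FaDu and 20.2% in HCT116. MET, VEGFA and GIPC1 also fell in SiHa, with log2 changes of -0.76, -0.37 and -0.34, and all 3 lost the call without pH 7.4 replicate 1 (-0.86, -0.20 and -0.22) or 5 (-0.78, -0.41 and -0.34), MET also without pH 7.4 replicate 4 (-0.63). MET also lost it without pH 6.5 replicate 6 (-0.70). So did VEGFA without pH 6.5 replicate 1, 5, 6 or 7 (-0.38 to -0.36) and GIPC1 without pH 6.5 replicate 4, 5, 6 or 7 (-0.34 to -0.32).

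Proteases that cut class 3 semaphorins, the furin-like convertases, with other sheddases, numbered 7. In SiHa all 7 could be tested, and 1 rose and 3 fell at pH 6.5 (median log2 change -0.22), where 31.2% of all genes were called. PCSK5 fell to 133 to 196 normalised counts at pH 6.5, against 436 to 556 at pH 7.4 (log2 change -1.54 ± 0.16, limma adjusted p = 0.000112). PCSK6 and PCSK7 fell by 1.15 and 0.82 on the log2 scale. ADAMTS1 rose by 1.08 with groups that overlapped, a call lost without pH 7.4 replicate 4 (0.92) or 5 (0.93). In HCT116, 0 of the 6 proteases tested were called, and in FaDu 0 of 7 (median log2 change -0.25 and -0.39). Over all genes tested, 20.2% were called in HCT116 and 7.36% in FaDu.

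Of 29 genes that carry plexin signals, 28 could be tested in each line. In HCT116, 4 rose and 5 fell, in SiHa 4 rose and 7 fell, and in FaDu 4 rose and 1 fell, with medians of -0.06, -0.02 and -0.05. Over all genes tested, 20.2% were called in HCT116, 31.2% in SiHa and 7.36% in FaDu. The HCT116 calls were all under 2-fold, with RND1, a GTPase that binds plexins, higher by 0.95 and FYN, a kinase of the SEMA3A pathway, lower by a log2 change of -0.98 (limma adjusted p = 0.0183 and 0.00747). RRAS, CDK5 and SH3BP1 were higher by 0.67 to 0.75, and DPYSL2, DPYSL3, RHOD and ARHGEF12 had log2 changes of -0.93 to -0.60. ARHGEF12 kept its call in each omission of 1 library. The call was lost without HCT116 pH 6.5 replicate 1 for RND1 (0.79), RRAS (0.33), CDK5 (0.61), SH3BP1 (0.31) and DPYSL2 (-0.74), and without replicate 3 for FYN (-0.87), RHOD (-0.47), DPYSL3 (-0.60) and DPYSL2 (-0.73). Calls were also lost without HCT116 pH 7.4 replicate 3 or 5 for RRAS (0.67 and 0.69), 5 for DPYSL2 (-0.72) and 7 for SH3BP1 (0.61). In SiHa the largest were DPYSL4 and DPYSL5, of the collapsin response mediator family that carries semaphorin signals to microtubules. DPYSL5 fell to 114 to 195 normalised counts at pH 6.5, against 862 to 1054 at pH 7.4 (log2 change -2.60 ± 0.17, limma adjusted p = 1.28e-05), and the libraries kept apart had 894 and 642. DPYSL4 fell by 4.21 ± 0.55 on the log2 scale (limma adjusted p = 0.00039). FES, a kinase bound to plexin A1, fell by 1.96 and RHOD, a GTPase that binds plexins, fell by 1.22. Other SiHa calls were lost without pH 7.4 replicate 1 for MICAL2 (0.49), FARP2 (0.28), RRAS (0.47), CDK5 (-0.40) and LIMK1 (-0.30). TIAM1 lost its call without pH 7.4 replicate 4 (-0.75) or 5 (-0.72). MICAL2, FARP2, RRAS and LIMK1 also lost theirs without single libraries at pH 6.5.

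In FaDu, DPYSL5 rose to 331 to 494 normalised counts at pH 6.5, against 78.0 at pH 7.4 (log2 change 2.39 ± 0.25, limma adjusted p = 0.00811). The FaDu pH 7.4 libraries kept apart had 376 to 842, and with them the log2 change was 0.02. FES had 18.7 to 32.4 at pH 6.5, against 4.39 at pH 7.4 and 212 to 439 in the libraries kept apart (log2 change 2.19 ± 0.41, limma adjusted p = 0.0289), and the call was lost without pH 6.5 replicate 2 (2.17), 3 (2.08), 4 (2.27) or 5 (2.16). FARP1, an exchange factor that binds A-type plexins, and RAP1A, a small GTPase that plexins act on, rose by 0.97 and 0.76, and FYN fell by 0.71 on the log2 scale, and these 3 calls were lost without pH 6.5 replicate 3 (0.98, 0.74 and -0.71) or 4 (0.96, 0.77 and -0.71), those of FARP1 and FYN also without replicate 2 (0.91 and -0.71) or 5 (0.94 and -0.67).

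The other guidance cues, slits, netrins and their receptors, had 10 genes tested in SiHa, of which 5 fell (median log2 change -0.72), and 12 in FaDu, of which 3 fell (median -0.62), where 31.2% and 7.36% of all genes were called. UNC5B fell in both lines, to 56.0 to 224 normalised counts in SiHa at pH 6.5, against 574 to 716 at pH 7.4 (log2 change -2.33 ± 0.40, limma adjusted p = 0.00178), and to 679 to 1073 in FaDu at pH 6.5, against 4258 at pH 7.4 (log2 change -2.37 ± 0.26, limma adjusted p = 0.0092). NTNG1 fell by 3.97 ± 0.63 on the log2 scale in SiHa (limma adjusted p = 0.00124), and ROBO1, a slit receptor, fell by 1.00 ± 0.16 (limma adjusted p = 0.00118). UNC5A fell by 1.44 ± 0.40 in SiHa (limma adjusted p = 0.0193), a call lost without pH 7.4 replicate 1 (-1.33) or 4 (-1.43). SLIT3 in FaDu had 2.09 to 15.6 at pH 6.5, against 84.6 at pH 7.4 (log2 change -4.14 ± 0.92, limma adjusted p = 0.0424), a call lost without pH 6.5 replicate 2 (-4.11), 3 (-4.04), 4 (-3.98) or 5 (-3.99). NEO1, a netrin and repulsive guidance receptor, fell by 0.84 in FaDu, a call lost without pH 6.5 replicate 3 (-0.82) or 4 (-0.83), and by 0.31 in SiHa. In HCT116, 7 of these genes could be tested, and ROBO3 rose and NTN1 fell, with log2 changes of 0.77 and -0.70, calls lost without pH 6.5 replicate 1 for ROBO3 (0.59) and without pH 6.5 replicate 3 for NTN1 (-0.48).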

How the data were processed

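RNA was sequenced in 30 libraries. GRCh37 is the build listed in the submitters' processing notes, which also list STAR 2.6.1d, Trimmomatic 0.38, bcl2fastq 2.20, FastQC and DESeq2 1.22.2. The sources used here do not name the counting program, strand setting or annotation release. The deposited values are a signal, read counts that the authors normalised with 1 factor per library. Each value was a whole multiple of its library's smallest value (100% of values, with a tolerance of 0.01 steps), which gave back whole reads. A table of gene names gave symbols for 35466 identifiers and none for 2656; exon lengths are from GENCODE 29, on another build. Every library column belonged to a sample of the series.

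The members and the gene lists were chosen with earlier results of these data known. The 9 libraries kept apart were named in the rule that chose the members. limma 3.58.1 with an intensity trend (R 4.3.3) compared log2 of the value plus 1 in the kept libraries of the 2 groups, leaving out genes whose mean was under 10 in both groups. Benjamini-Hochberg adjustment ran over all genes tested, 2-sided, at 0.05. The code was tested on simulated data. Named beyond the members were up to 4 genes per list and comparison with the largest change among those called, changed at least 2-fold and with no overlap, besides all genes of a count of 5 or fewer; RND1, FYN and the genes beside SEMA3A were chosen after their values were seen. Likeness was the root mean square distance of centred group means on the log2 scale, among genes with a mean of at least 100 in 1 group. Alternatives were all libraries as labelled, TMM factors, a pseudocount of 5, no filter, edgeR 4.0.16 and DESeq2 1.42.0 on the recovered reads, 1 fit over all kept libraries, a replicate block and leaving out each library. Python 3.11.15, pandas 2.3.3, scipy 1.17.1 and matplotlib 3.10.9 were used. Labels give replicate numbers but no shared culture or day.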

Additional observations from a re-analysis of the deposited data

Results flagged for a closer look

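For SEMA3A every kept pH 6.5 library lay on opposite sides of the pH 7.4 libraries in 2 pairs of lines: the log2 change was 5.67 in HCT116 and -4.13 in SiHa, and 1.66 in FaDu and -4.13 in SiHa. The opposite directions in HCT116 and SiHa are what the genes were chosen by. PLXNA1 did likewise, at -0.76 in HCT116 and 0.45 in FaDu, and at 0.45 in FaDu and -0.17 in SiHa, as did PLXNA2, at 0.92 in FaDu and -1.52 in SiHa. None of these differences between lines was tested itself, and the FaDu values rest on 1 library at pH 7.4.

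A single library stood off from the other 4 of its group, relative to the group's range, in 3 cases, which chance gives in about 1 of 20 groups. SEMA3B had 591.33 in FaDu pH 6.5 replicate 1, and PLXND1 had 4233.08 in SiHa pH 6.5 replicate 7. SEMA3A had 1.4, from 1 read, in SiHa pH 6.5 replicate 4 and 0 in the other 4, where any single read would stand off and which counting error allows.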

How the results depend on the processing

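Over the alternatives, 755 changes of members kept their direction and their side of the threshold, 27 lost the call, 26 gained it and 20 changed sign; of the pH changes called in the gene lists, with SEMA3E in FaDu, 727 kept both, 139 lost the call, 4 gained it and 7 changed sign. The causes were not tested.

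FaDu depended most on the processing. Its 1411 called genes became 9115 with all libraries as labelled, 2659 with DESeq2 and 2566 with 1 fit over all kept libraries, and its 2 called members became 7 with all libraries as labelled, 5 with DESeq2 and 1 with no filter. Leaving out 1 library gave 66 to 7039 genes and 0 to 6 members in FaDu, 2198 to 5150 and 3 to 4 in HCT116, and 3551 to 6473 and 5 to 7 in SiHa. Between lines it gave 13694 to 15270 and 7 to 8 in HCT116 against SiHa, 14057 to 15113 and 8 to 9 in FaDu against SiHa, and 11050 to 14134 and 6 to 8 in HCT116 against FaDu. Counts of members here and with the replicate block include SEMA3A, which outside the FaDu pH comparison describes the choice of the set.

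Signs changed as follows. With all libraries as labelled, PLXNA2 and PLXND1 in HCT116 were at 0.13 and 0.14, SEMA4G, DPYSL2, SH3BP1 and ROBO3 in HCT116 at -0.54, 0.12, -0.46 and -0.73, SEMA3C, PLXND1, SEMA6B, FES and FYN in FaDu at 0.48, -0.43, -0.73, -2.48 and 0.02, SEMA3F in HCT116 against SiHa at 0.02, and NRP2 in HCT116 against FaDu at -1.32. NRP1 in SiHa was at 0.37 with edgeR and 0.36 with DESeq2. Without 1 library, HCT116 values reached -0.81 to 1.10 (SEMA3C), -0.04 to 0.52 (SEMA3F), -1.28 to 0.38 (NRP2) and -0.20 to 0.01 (PLXND1), NRP1 in SiHa -0.41 to 0.48, and SEMA3F in HCT116 against SiHa -0.08 to 0.03.

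Replicate numbers did not establish a pairing. Same-numbered SiHa libraries correlated at 0.506, 0.03 and 0.179, only replicate 1 correlating best with its own number, and HCT116 had 2 pairs, at 0.305 and 0.129. With the replicate block, 2927 genes and 3 members were called in HCT116, 5237 and 7 in SiHa, 13162 and 7 in HCT116 against SiHa, 11906 and 7 in FaDu against SiHa, and 11092 and 7 in HCT116 against FaDu; NRP1 in SiHa was at 0.91 and SEMA3F in HCT116 against SiHa at 0.06. The pH comparison in FaDu had no such fit, with 1 kept library at pH 7.4. Depth limits SEMA3A in SiHa, where 1 read at pH 6.5 leaves the size of the difference wide.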

Other observations

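SEMA3A lies on chromosome 7 in a stretch with other genes of this system. Among the 6 protein-coding genes to each side in RefSeq, looked at after the values above were seen, were SEMA3C, SEMA3D, SEMA3E and HGF, and 11 of the 12 neighbours were in the table. In SiHa, 6 neighbours other than SEMA3C could be tested, and 2 rose and 2 fell at pH 6.5, where 31.2% of all genes were called. HGF, 4 places away, fell by 3.12 ± 0.52 (SE) on the log2 scale (limma adjusted p = 0.00154). ELAPOR2, 3 places away on the other side, fell by 3.84 ± 0.42 (limma adjusted p = 0.000159), to a mean of 63.9 normalised counts at pH 6.5, against 824 at pH 7.4. CACNA2D1, a calcium channel subunit gene between HGF and SEMA3A, rose by 1.22 ± 0.10 (limma adjusted p = 3.9e-05), to 3973 at pH 6.5, against 1696 at pH 7.4, and CD36 rose by 1.07 ± 0.34 (limma adjusted p = 0.0335). In HCT116, where SEMA3A was higher at pH 6.5, 7 neighbours other than SEMA3C could be tested. SEMA3D alone passed the test, with a log2 change of -0.86, where 20.2% of all genes were called.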
